A study of Daphnia magna with 24 samples.

Results

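This comparison set water taken at a second position downstream of Greenhorn Mine, in California, against water taken where the mine drainage enters, as seen by the water flea Daphnia magna. Its members were chosen by their labels: 12 of the 24 arrays of the series, 6 labelled downstream 2 and 6 labelled mine drainage entry site. Each site had 3 exposures with a dye-swap pair of arrays apiece, so that 6 of the 12 exposures of the series were compared. The design text says that the sites differed in copper without giving the amounts.

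The animals of every group were genetically homogeneous Daphnia magna from a commercial supplier, adult females aged 14 to 16 days. They spent 24 h in the field water in the laboratory at 23.5 °C, and 10 to 15 whole animals were pooled for each exposure. On every array the other channel held RNA of animals that were not exposed and had stayed in COMBO, a defined medium for freshwater plankton. The field water was collected on a single day, so the 3 exposures of a site are separate pools of animals and not separate water collections. Whether exposures shared control RNA is not stated. The p-values below measure the spread between those pools, which may be technical in part. In whole animals, a change in the amount of a tissue cannot be told apart from a change of RNA within it.

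Daphnia magna is a small crustacean that filters algae from fresh water and is a standard test animal for polluted water. Water draining from copper mines carries dissolved metals; copper is an essential cofactor of enzymes in traces and toxic in excess, through damage to proteins and membranes and through disturbed ion uptake. Animals answer such metals with metal-binding proteins such as metallothioneins and with enzymes of antioxidant defence. Which features of this array stand for such genes is not known here, since the features carry array IDs only and 0 of 7680 IDs matched a table of Daphnia magna genes. Features are therefore described by ID, and no sequence or function is attached to them.

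An array ID has a letter and a number, here called the ID block, then a row and a column. There are 20 ID blocks of 384 features, 7 that start with A (2688 features, rows A to P) and 13 that start with P (4992 features, whose rows have 2 letters, the first from A to D and the second from A to H). The sources used here do not say what these blocks stand for. Each value is a log ratio of the exposed and unexposed channels, taken as log2 although the base is not stated. Which channel is the numerator is not stated either. Exposed over unexposed is likely, because the design text sets the field exposures against the control, but values are given only as positive or negative and as higher or lower.

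The values at both sites were close for most features. The median of the 7388 differences, downstream 2 minus entry, was 0.01 on the log2 scale, the median size was 0.12, and the central 90% lay between -0.29 and 0.73. No feature changed between the sites: 0 of 7388 (0% called) passed an adjusted p of 0.05 in limma with Benjamini-Hochberg adjustment, and the lowest adjusted p was 0.81. At an unadjusted p under 0.05 there were 253 features (3.42%), of which 192 were higher at downstream 2 (2.6%) and 61 lower (0.826%). Without downstream 2 exposure 3 a single feature passed, A5I7, with a difference of 2.41 (limma adjusted p 0.023). Each of the other 5 fits that left out an exposure gave 0.

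The count of 0 does not show that both waters acted alike. The median half-width of the 95% interval of a difference, not adjusted for the number of features, was 0.42. The interval lay wholly between -0.5 and 0.5 in 3291 features (44.5%), and between -1 and 1 in 5618 (76%). For the remaining features a difference of more than 1 in size was within the interval. The median SD between exposures was 0.17 at the entry and 0.20 at downstream 2.

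**Figure D1:**
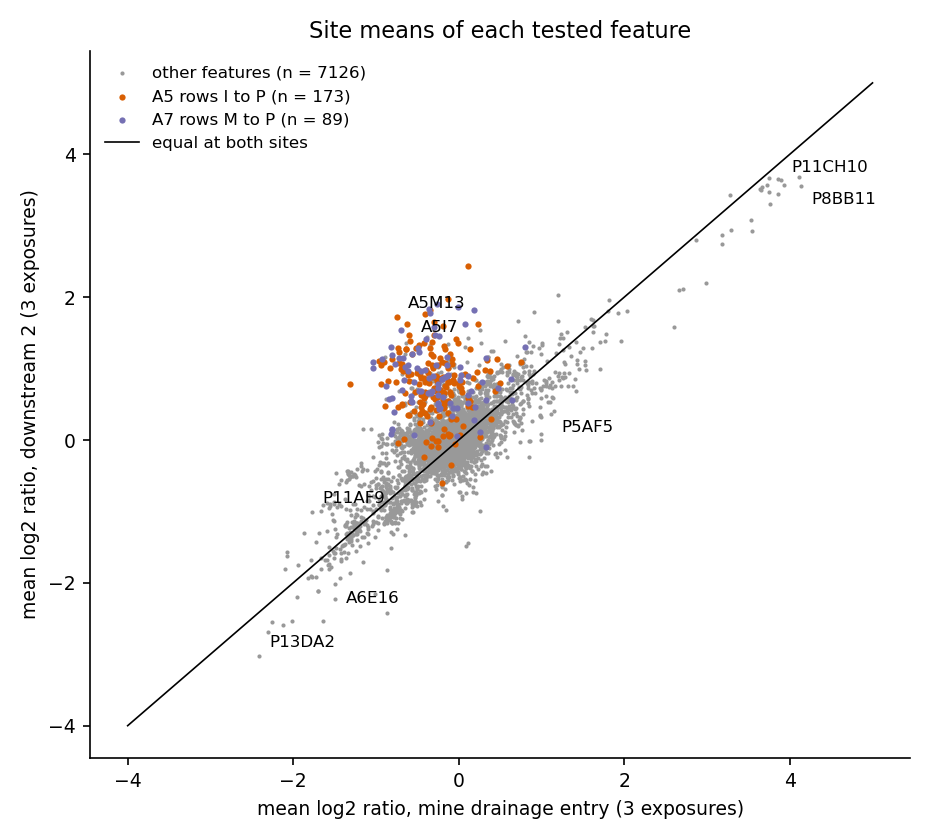
Mean log2 ratio of each tested feature at the mine drainage entry (x) and at downstream 2 (y), each over 3 exposures; the line marks equal values. Most points follow the line from P13DA2 at the lower left to P8BB11 at the upper right, while the features of A5 rows I to P and A7 rows M to P form a cloud above it.

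The features with the largest means against control, averaged over the entry, downstream 1 and downstream 2, come first. Such a ranking favours features that respond alike at these sites. P8BB11 had log ratios of 2.85, 5.25 and 4.30 in the 3 entry exposures and 4.23, 2.80 and 3.65 in the 3 downstream 2 exposures. The values of both sites overlapped, and the difference of the means was -0.57 (SE 0.64, limma adjusted p 1.00). P4CB5 stood at 2.73, 5.18 and 4.41 at the entry and at 4.63, 2.79 and 3.64 at downstream 2. P11CH10 stood at 2.56, 4.99 and 4.13 at the entry and at 4.18, 2.97 and 3.78 at downstream 2. In all 3 features entry exposure 1 was the lowest of the entry values and downstream 2 exposure 2 the lowest of the downstream 2 values, so the spread within a site was wider than the distance between the sites. Their 95% intervals of the difference ran from -1.99 to 0.85 for P8BB11, from -2.22 to 1.38 for P4CB5 and from -1.68 to 1.18 for P11CH10.

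The 3 most negative features behaved likewise. P13DA2 was at -1.68, -3.49 and -2.06 at the entry and at -4.26, -2.51 and -2.29 at downstream 2. P9AG7 was at -1.57, -3.48 and -1.86 at the entry and at -4.15, -2.04 and -1.90 at downstream 2. P13CD12 was at -1.63, -2.70 and -2.43 at the entry and at -3.11, -1.93 and -2.59 at downstream 2. Entry exposure 2 and downstream 2 exposure 1 were the most negative in each of them, and the sites overlapped. The differences were -0.61 for P13DA2 (SE 0.65), -0.39 for P9AG7 (SE 0.70) and -0.29 for P13CD12 (SE 0.39), and none passed (limma adjusted p 1.00 each). Counted over all tested features, 62 had a mean over 1 at both sites, 135 had a mean under -1 at both, and 2 had means over 1 in size with opposite signs.

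To follow responding features without choosing them by their means at either site, those changed at downstream 1 against control were taken. Downstream 1 is another position below the mine whose exposures are outside this comparison, though all sites may share control RNA. There were 237 such features (3.21% of those tested, limma adjusted p under 0.05), 158 positive and 79 negative. With negative features turned, the downstream 2 minus entry difference had a median of -0.09, against -0.002 over all tested features, and 162 of 237 were smaller in size at downstream 2. Of the 237, 22 differed by more than 0.5 (9.28%, against 10.1% of all tested) and 0 by more than 1. The spread in the downstream 1 test came from all 12 exposures. Features that varied widely within the entry or downstream 2 exposures were therefore less likely to enter the list, and these shares are not independent of that choice. Turned medians over the list were 0.83, 1.09 and 0.98 in the entry exposures and 0.96, 0.90 and 0.81 in the downstream 2 exposures, which overlapped. Without entry exposure 2 the median over the same list was -0.04, with 134 of 237 smaller at downstream 2. Over the arrays with exposed RNA in Cy5 it was -0.09 (237 features) and over those in Cy3 -0.12 (234 features), a split added after seeing the data. A list chosen anew on the Cy3 arrays alone, of 1217 features, had a median of 0.016, where both the list and the arrays differ.

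The strongest of these features depended on single exposures. For the 22 with a mean over 2 at downstream 1, a bound set after seeing the values, the median was 2.40, 4.65 and 3.90 in the entry exposures and 4.01, 2.79 and 3.36 in the downstream 2 exposures. The median difference was -0.33 and 21 of 22 were lower at downstream 2, yet without entry exposure 2 it was 0.17 with 17 of 22 higher, and without downstream 2 exposure 2 it was 0.004 with 11 of 22 higher. Without entry exposure 1 it was -0.93, and without downstream 2 exposure 1 it was -0.59, with 22 of 22 lower in both. For the 11 with a mean under -1.5 at downstream 1, turned medians were 1.68, 1.81 and 1.67 at the entry and 2.11, 1.93 and 2.05 at downstream 2. Their median turned difference was 0.29, with 6 of 11 larger in size at downstream 2. It was -0.01 without downstream 2 exposure 1, 0.12 without entry exposure 1 and 0.45 without entry exposure 2.

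**Figure D2:**
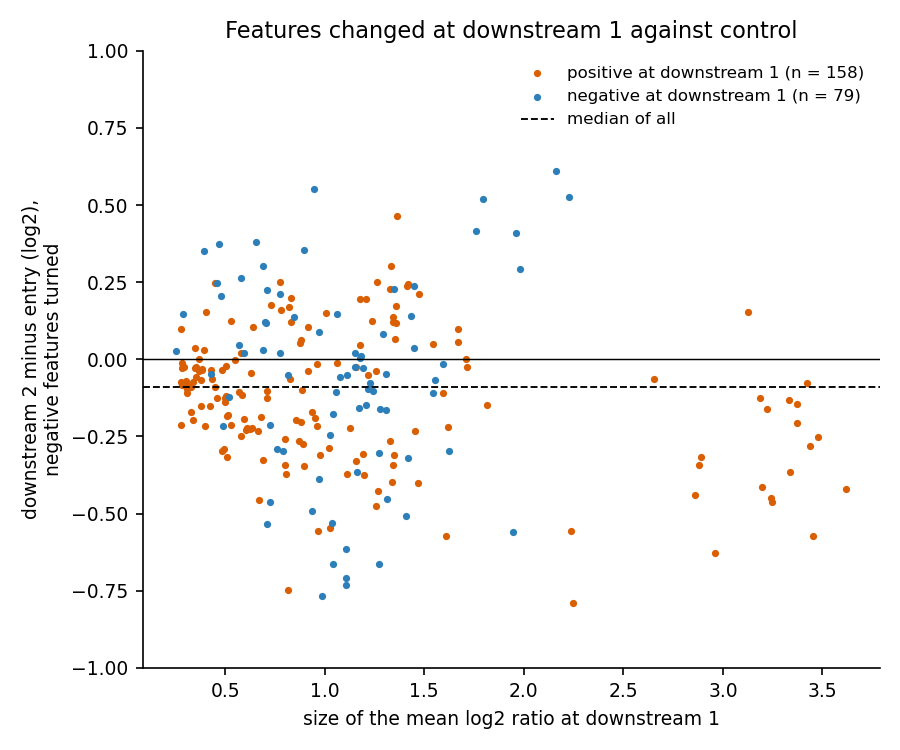
Downstream 2 minus entry difference (y, log2, negative features turned so that values below 0 mean a smaller response at downstream 2) of the 237 features changed at downstream 1 against control, by the size of their mean at downstream 1 (x). The dashed line is the median of -0.09; the 22 positive features to the right of 2 lie almost all below 0, an order that turns without entry exposure 2.

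Features whose 3 exposures at one site all lay beyond the 3 at the other were counted next. Of 7080 features measured in all 6 exposures, 473 had no overlap (6.68%), 233 with downstream 2 higher (3.29%) and 240 with downstream 2 lower (3.39%). The split of 49.3% higher depended on the processing. It was 61.3% of 493 with each array centred on its P features, a choice made after seeing the data, and 59.2% of 446 with scaled arrays. It was 40.5% of 479 with quantile normalization, 36.8% of 288 among features complete on all arrays and 37.6% of 322 with both dye-swap arrays required. Among the 237 features changed at downstream 1, with signs not turned, 4 were higher without overlap and 19 lower, of 236 measured in all 6 exposures. Of the 19, 12 were positive at downstream 1 and 7 negative, so lower does not mean a weaker response throughout. The 4 higher ones were negative at downstream 1. From each direction the 12 features of lowest p are described below. None of these 24 passed the adjusted threshold, with limma adjusted p between 0.81 and 1.00.

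Of the 12 features lower at downstream 2, 4 were negative at both sites and further below 0 at downstream 2. A6E16 was at -1.65, -1.46 and -1.36 in the entry exposures and at -1.98, -2.10 and -1.96 in the downstream 2 exposures, while its upstream mean was 0.02 ± 0.03 (SD, n = 3). Its difference of -0.52 (SE 0.09, 95% interval -0.73 to -0.31, limma adjusted p 0.81) was -0.78 on arrays with exposed RNA in Cy5 and -0.26 with Cy3. The single arrays of the sites thus overlapped in the Cy3 orientation, with -1.76, -1.86 and -1.42 at the entry and -2.15, -1.74 and -1.92 at downstream 2.

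P11DG2 was at -1.90, -1.81 and -1.39 at the entry and at -2.11, -2.12 and -2.10 at downstream 2, a difference of -0.41 (SE 0.12) that was -0.62 over Cy5 and -0.19 over Cy3 arrays. P2AA10 was at -1.83, -1.77 and -1.49 at the entry and at -1.98, -2.17 and -2.19 at downstream 2, a difference of -0.42 (SE 0.13) that was -0.57 over Cy5 and -0.26 over Cy3 arrays. In P11DG2 and P2AA10 the single Cy3 arrays of the sites overlapped as well. Against control 5.48% of all tested features passed at the entry and 6.66% at downstream 2. A6E16, P11DG2 and P2AA10 were among them at both sites (limma adjusted p 1.2e-05 or lower) and had downstream 1 means of -1.79, -1.96 and -1.76, which lay between the other 2 sites. A1O1 was weaker, at -0.41, -0.65 and -0.60 at the entry and at -1.26, -0.89 and -0.88 at downstream 2. It too passed against control at both sites (limma adjusted p 0.013 at the entry and 0.0008 at downstream 2). Its single Cy3 arrays also overlapped between the sites.

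Another 3 of the 12 were positive at the entry and nearer to 0 at downstream 2. P5AF5 was at 0.93, 1.16 and 1.25 in the entry exposures and at 0.58, -0.06 and 0.59 in the downstream 2 exposures. Its mean against control passed at the entry (1.12 ± 0.16, SD, n = 3, limma adjusted p 0.001) and did not at downstream 2 (0.37 ± 0.37, SD, n = 3, limma adjusted p 0.18). The difference between the sites was -0.75 (SE 0.20), with -0.75 in each dye orientation, and did not pass (limma adjusted p 1.00). Upstream values of 0.07, 0.60 and 0.42 overlapped those of downstream 2.

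P9AA3 was at 0.73, 0.51 and 0.31 at the entry and at 0.07, -0.23 and 0.09 at downstream 2, a difference of -0.54 (SE 0.14). The -0.23 averaged 0.31 on the Cy5 array and -0.77 on the Cy3 array. P7CH8 was at 0.53, 1.25 and 0.45 at the entry and at 0.09, -0.32 and 0.17 at downstream 2, a difference of -0.77 (SE 0.23). Both passed against control at the entry (limma adjusted p 0.014 and 0.029) and stood near 0 at downstream 2 (means of -0.02 each). Downstream 1 means of 0.13 for P9AA3 and 0.46 for P7CH8 lay between the 2 sites. The differences themselves did not pass, so a response at the entry alone is not shown.

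The other 5 of the 12 were small or spread widely. Of these, P9BF6 and P13BH10 passed against control at downstream 2 alone (limma adjusted p 0.028 and 0.0498). P9BF6 went from 0.26, 0.02 and 0.26 at the entry to -0.33, -0.42 and -0.19 at downstream 2. Its entry exposures 2 and 3 had values on Cy3 arrays alone. Over Cy3 arrays the difference was -0.28 and the sites overlapped. P10DH9 went from 0.26, 0.16 and 0.24 to -0.27, -0.09 and -0.09. P8AH3 (-0.46) and P6AH5 (-0.27) had small differences in the same direction. P13BH10 had the largest difference of those without overlap, -1.26 (SE 0.37), from 0.92, 0.06 and -0.20 at the entry to -0.55, -0.83 and -1.63 at downstream 2. It was followed by P3CD3 (-0.99) and P13DB1 (-0.83), and the P3CD3 difference rested on an entry exposure 2 value of 2.31, beside 0.42 and 0.24 in the other 2. The 2.31 averaged 4.20 on the Cy3 array and 0.42 on its Cy5 partner, so it came from a single array. Without entry exposure 2 the P3CD3 difference was -0.33.

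Among the features higher at downstream 2, P11AF9 was the only member of its 12 that was changed against control at both sites (limma adjusted p 0.002 or lower). It was at -1.78, -1.90 and -1.63 in the entry exposures and at -1.42, -0.76 and -0.83 in the downstream 2 exposures, which do not overlap, although downstream 2 exposure 1 came close. Its difference was 0.77 (SE 0.18, limma adjusted p 1.00), with 0.84 in the Cy5 and 0.70 in the Cy3 orientation. Downstream 1 stood at -0.82, -1.07 and -1.07, level with downstream 2, and upstream at -0.27, -0.15 and -0.51. P11AF9 was thus less negative at both downstream positions than at the entry. The downstream 2 difference did not pass, and downstream 1 was not tested against the entry.

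**Figure D3:**
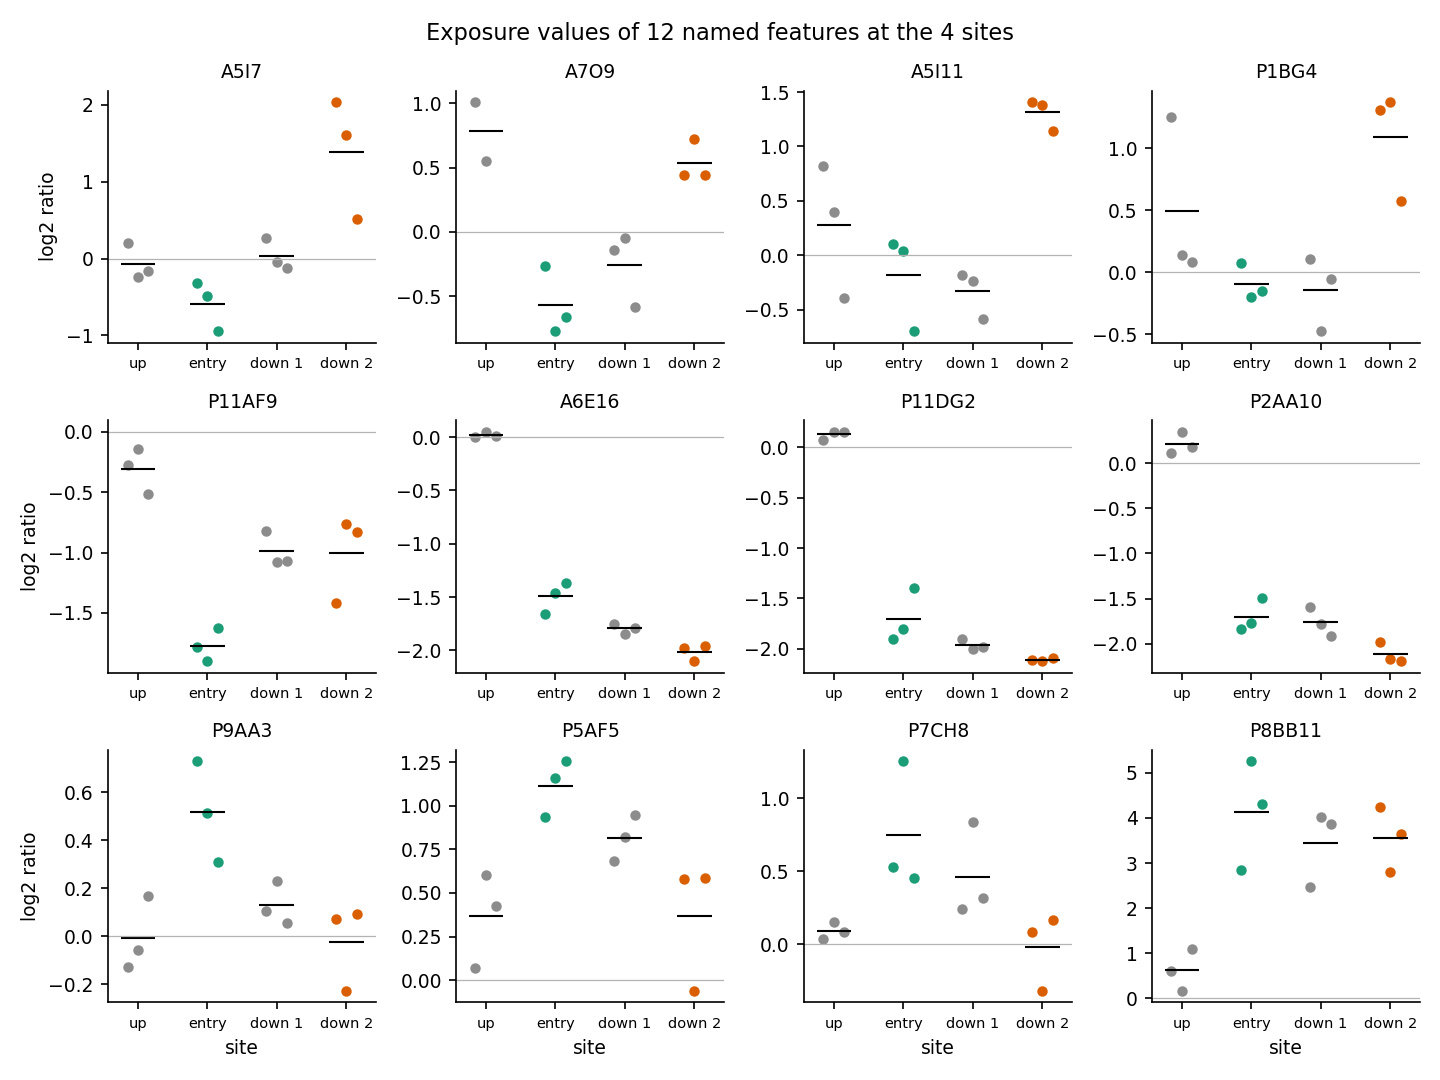
Log2 ratios of 12 named features in each exposure at the 4 sites (green entry, orange downstream 2, grey upstream and downstream 1); bars are site means. Entry and downstream 2 exposures are apart in 11 of these features and overlap in P8BB11; A6E16, P11DG2 and P2AA10 stand near 0 upstream and near -2 at downstream 2.

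The other 11 of the 12 features higher at downstream 2 had entry means from -0.68 to -0.09 and positive downstream 2 means, from 0.50 to 1.39. Against control, A5I7, A5I11, P1BG4, A7M6 and A5P16 passed at downstream 2 alone (limma adjusted p 0.006 to 0.030). A5O2 passed at the entry alone (limma adjusted p 0.047), and the others at neither site. The differences between the sites did not pass, so a response at 1 site alone is not shown. A5I7 had the lowest p of all features for the difference between the sites. It was at -0.32, -0.49 and -0.95 at the entry and at 2.04, 1.61 and 0.52 at downstream 2, a difference of 1.98 (SE 0.34, 95% interval 1.22 to 2.74, limma adjusted p 0.81). The 2.04 of downstream 2 exposure 1 came from the Cy5 array alone, its dye-swap partner having no value, and the difference was 2.25 over Cy5 arrays and 1.13 over Cy3 arrays. A7O9 was at -0.27, -0.78 and -0.66 at the entry and at 0.44, 0.72 and 0.44 at downstream 2, with values on 18 of the 24 arrays. Its downstream 2 values were 0.81, 1.45 and 0.65 on Cy5 arrays and 0.07, -0.002 and 0.24 on Cy3 arrays. Entry exposure 2 had a Cy5 value alone and entry exposure 3 a Cy3 value alone. Upstream exposures 1 and 2 stood at 1.01 and 0.56, and exposure 3 had no value. In A5I7 and A7O9 every entry exposure was negative and every downstream 2 exposure positive. A5I11 was at 0.11, 0.04 and -0.70 at the entry and at 1.41, 1.38 and 1.14 at downstream 2, with the smallest SD of these 11 at downstream 2 (0.15).

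A5O2 was at -0.49, -0.55 and -1.01 at the entry and at 1.06, 0.39 and 0.05 at downstream 2, but its difference was 2.13 over Cy5 arrays and 0.19 over Cy3 arrays. A5J5, A5P16 and A7M6 differed by 1.18, 0.94 and 1.30. A5J5 had no downstream 2 value on a Cy5 array, and its difference over Cy3 arrays alone was 0.99. The remaining 4 came from the blocks P1 and P2. P1BG4 was at 0.07, -0.20 and -0.15 at the entry and at 1.31, 1.37 and 0.58 at downstream 2, where the 1.31 came from a Cy5 array alone. P1BD8, P2DF8 and P2DF10 differed by 1.38, 1.02 and 0.78. As in A5O2, the Cy5 difference was the larger in P1BG4 (1.51, and 0.41 over Cy3 arrays) and in A5P16 (1.39 and 0.50). So it was in P2DF10 (1.14 and 0.42), P2DF8 (1.18 and 0.65) and P1BD8 (1.41 and 1.08). The reverse held in A5I11 (1.33, and 1.66 over Cy3 arrays) and in A7M6 (1.06 and 1.20). The largest differences without overlap were those of A5M13 (2.47, SE 0.79), A5M15 (2.25, SE 0.81) and A7O23 (2.24, SE 0.88). Each had entry exposure 3 near -2 and the other entry exposures within 0.3 of 0. The value near -2 came from the Cy3 array alone in each of them. A5M15 had a value on a single array in every exposure of both sites, and A7O23 in every entry exposure.

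The IDs of these features recurred, and so did those of all large differences. Of 207 features that differed by more than 1 (2.8%), 200 were higher at downstream 2 (2.71%) and 7 lower (0.0947%). Of these 207, 89 had IDs in rows I to P of block A5 and 54 in rows M to P of block A7, 69.1% in all, although these 2 stretches hold 262 of the 7388 features tested. Within them, 254 of 262 differences were positive and the median was 1.06, against 0.08 for the other A features and -0.02 for the P features. The rows A to H of the same block A5 had a median of 0.10, and 1 of their 191 features exceeded 1. The stretches were marked out after the values were seen, and these shares describe them and carry no test.

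**Figure D4:**
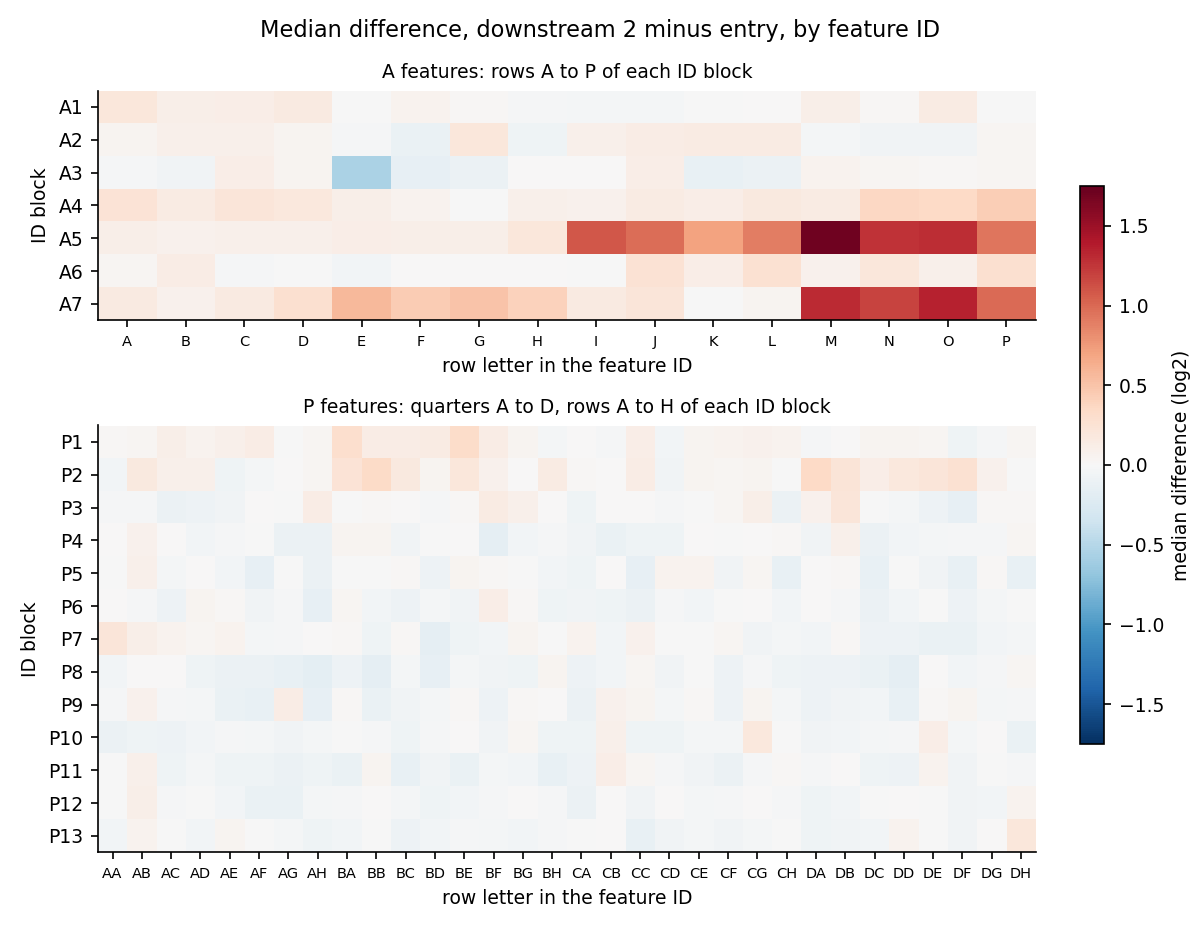
Median downstream 2 minus entry difference (colour, log2) of the tested features by ID block (y) and row letters (x), for A features above and P features below. Rows I to P of A5 and M to P of A7 stand out with medians of 0.70 to 1.70; rows E to H of A7 (0.40 to 0.56) and N to P of A4 (0.35 to 0.43) show weaker shades, and the most negative row, row E of A3 at -0.56, rests on 5 tested features.

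The difference in the stretches was carried by some exposures. Over the 173 tested features of A5 rows I to P the median log ratio was -0.18, 0.24 and -0.95 in the entry exposures and 1.31, 1.03 and 0.08 in the downstream 2 exposures. Over the 89 of A7 rows M to P it was -0.09, 0.14 and -1.03 at the entry and 1.45, 0.83 and 0.26 at downstream 2. Downstream 2 exposure 3 lay close to entry exposure 2, so the sites overlapped in the A5 stretch and not in the A7 stretch, while downstream 2 exposures 1 and 2 were high and entry exposure 3 was low. The same stretches reached 1.24 (A5) and 1.15 (A7) in upstream exposure 1, and lay between -0.15 and -0.09 in upstream exposures 2 and 3. In downstream 1 exposures they lay between -0.12 and 0.20. High values in these features were therefore also found in 1 of 3 exposures to upstream water.

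Dye orientation moved with these values. In downstream 2 exposure 1 the A5 stretch had a median of 2.17 on the array with exposed RNA in Cy5 and 0.43 on its partner, and in exposure 2 these were 2.03 and 0.34. In entry exposure 3 the low value came from the array with exposed RNA in Cy3, at -1.46, beside -0.11 in Cy5. Over both stretches the median difference between the sites was 1.21 with Cy5 arrays alone and 0.75 with Cy3 arrays alone, so the direction was shared by both orientations and the size was not. The part of a dye effect in the site difference was not tested.

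Missing values went with the stretches as well. Of the 262 features, 7 (2.67%) had a value on every array, against 68.7% of all tested features, and among the 207 features that differed by more than 1 it was 10 (4.83%). Where an exposure has a single array, the dye effect does not cancel. With both dye-swap arrays required for an exposure, a choice made after seeing the data, 54 features differed by more than 1, of which 23 were in the stretches, and the median over the 79 stretch features that could still be tested was 0.67. With quantile normalization 97 features exceeded 1, with exposed RNA in Cy3 alone 87, and among the 5073 features complete on all 24 arrays 10. Leaving out entry exposure 2 or downstream 2 exposure 3 raised the count to 345 and 335. The median over the stretches was 0.77 without entry exposure 3 and 1.38 without downstream 2 exposure 3, the lowest and highest of the 6 fits that left out an exposure. Intensities were not used here, so whether these features were dim was not tested.

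**Figure D5:**
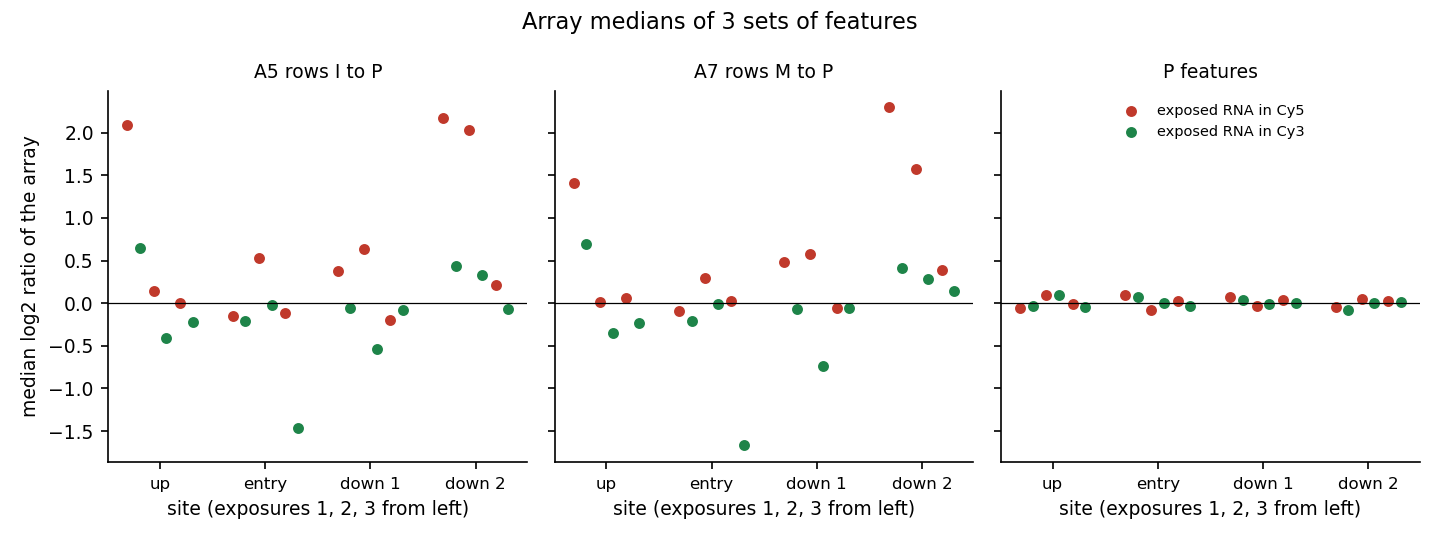
Median log2 ratio on each of the 24 arrays for A5 rows I to P, A7 rows M to P and the P features, by site (x, exposures 1 to 3 from left), with exposed RNA in Cy5 (red) or Cy3 (green). In the stretches the Cy5 arrays of upstream exposure 1 and downstream 2 exposures 1 and 2 stand above 1.4 and the Cy3 array of entry exposure 3 below -1.4, while the P features stay near 0.

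Of the 64 features over 1 in size outside the stretches, 57 were positive, 33 had IDs in P1 and P2 and 8 in A3. P1 rows with first letter B had 9 of 94 features over 1 and a median of 0.14, and P2 rows with first letter B or D had 19 of 192 and a median of 0.13. These sets were also chosen after their values were seen. The features whose pattern over the 12 exposures was most like that of A5I7 were P1BE11, P1BD4 and A5O2, by Pearson correlation over 12 exposures among 6950 features measured in all, with r up to 0.90 for P1BE11. P1BE11 was at -0.06, 0.06 and -0.77 at the entry and at 1.63, 1.20 and 0.25 at downstream 2. Of the 50 most alike, 15 were in A5 and 7 in A7, 22 of them in the 2 stretches, with r of 0.81 or more. These correlations describe the list and share their arrays.

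A different part of the A features varied within both sites. Over the 190 tested features of A7 rows A to H the median was -1.16 in entry exposure 1, beside 0.02 and 0.08 in exposures 2 and 3, and -0.48 in downstream 2 exposure 2, beside 0.37 and -0.04 in exposures 1 and 3. The sites overlapped there, and the median difference of 0.36 came with an SD between exposures of 0.75 at the entry. Opposite signs at the sites, with means of at least 0.5 in size and no overlap, were rare among the 7080 features measured in all 6 exposures. They were found in 24 features higher at downstream 2, 18 of them in the 2 stretches where values were often missing, and in 0 lower.

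Detection differed little between the sites. Arrays of both sites held 7042 to 7472 values, with a median of 7174 at the entry and 7190 at downstream 2. No feature was absent from all 6 downstream 2 arrays and present on all 6 entry arrays, and 1 showed the reverse. Of 7680 features, 5687 had a value on all 12 arrays and 16 on none of them.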

How the data were processed

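Per the labels' protocols, whole-animal RNA was reverse transcribed with aminoallyl dUTP and the cDNA coupled to a Cy dye, exchanged between both arrays of an exposure. The deposited values are log ratios per feature and array, taken as log2. For the scanner, background correction, normalization, log base and direction, the authors' choices were not stated in the labels or files used here. Deposited array medians of both sites lay between -0.0359 and 0.0257. All pairs of arrays of both sites with the same dye orientation correlated positively (lowest r 0.16 of 30 pairs), as did dye-swap partners (lowest r 0.515), so no array ran against the others.

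The median of each array was subtracted, and the arrays of an exposure were averaged, or the single value taken where 1 was missing. Features with values in at least 2 of 3 exposures at each of the 4 sites were tested (7388, with 292 left out). All 12 exposures entered a limma fit (lmFit and eBayes in limma 3.58.1, R 4.3.3), without a replicate block. Residual degrees of freedom were 8 and prior ones 1.79. A two-sided Benjamini-Hochberg adjusted p under 0.05 counted as changed. The steps were tested on simulated data. Named features are the 12 of lowest p without overlap in each direction, the 3 with the largest difference and the 3 with the largest means against control. Up to 3 with opposite signs and the 3 most like the feature of lowest p were added. For the ranking by means against control, the entry, downstream 1 and downstream 2 were averaged. Members, lists and rules were chosen with earlier results of these data known. Gene lists and marker lists could not be used without gene names. Python 3.11.15 with matplotlib 3.10.9 drew the figures. The number of exposures limits the precision.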

Additional observations from a re-analysis of the deposited data

Results flagged for a closer look

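In 7 of the named features all 3 exposures of one site were positive and all 3 of the other negative. These were A5I7 (1.98, downstream 2 minus entry), A7O9 (1.10), A5O2 (1.18), A5J5 (1.18), P2DF8 (1.02), P9BF6 (-0.49) and P10DH9 (-0.37). The difference between the sites was tested with limma in each and did not pass (adjusted p 0.81 to 1.00). The 5 positive ones have IDs in A5, A7 or P2, and 4 of them lie in the A5 and A7 stretches described above. Most named features were chosen for exposures without overlap, which favours opposite signs, and the share of such features among all tested was not counted. In all but P10DH9, some of these exposures had a value on a single array, where the dye effect does not cancel. A5J5 had downstream 2 values on Cy3 arrays alone.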

How the results depend on the processing

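Across 22 alternatives, 3 of them chosen after seeing the data, the count of changed features stayed at 0 in 21, with 82 to 343 features at an unadjusted p under 0.05. It ranged from 0 to 1 when an exposure was left out (140 to 504 at an unadjusted p under 0.05). Among fits with every exposure, array weights gave the smallest adjusted p (0.195). The labels do not say whether exposure numbers mark pairs. Deviations of same-numbered exposures from their site means correlated at -0.46, -0.39 and 0.45. The highest values joined entry exposure 1 with downstream 2 exposure 2 (0.57) and entry exposure 2 with downstream 2 exposure 1 (0.63). With 3 exposures per site these values cannot decide whether exposures were paired. No fit with such crossed pairs was made, since no label gives them. With both sites alone and a replicate block, 0 features passed and 343 had an unadjusted p under 0.05. Features without overlap numbered 315 with exposed RNA in Cy5 alone and 288 among features complete on all arrays, both with fewer features measured, and 890 to 1487 with an exposure left out, where fewer values have to separate. Features over 1 in size numbered 97 with quantile normalization, 87 with exposed RNA in Cy3 alone, 10 among complete features, 54 with both dye-swap arrays required, 64 without the A5 and A7 stretches, and 185 to 345 with an exposure left out; beyond fewer features tested, the cause was not tested. Of 766 values of 37 named features under these alternatives, 756 kept their sign. The other 10 belonged to features with the largest means against control. With quantile normalization P11CH10 was at 0.077. With array weights P13DA2 was at 0.069 and P9AG7 at 0.33. With an exposure left out, P11CH10 ran from -0.92 to 0.30 (0.087 without downstream 2 exposure 2), P4CB5 from -1.11 to 0.12 (0.026 without downstream 2 exposure 2), P13DA2 from -1.15 to 0.0098, P9AG7 from -0.97 to 0.34 and P13CD12 from -0.60 to 0.019. The highest came without entry exposure 2 for P11CH10 and P4CB5, without downstream 2 exposure 1 for P13DA2 and P9AG7, and without entry exposure 1 for P13CD12. The cause was not tested.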
